A study of Mus musculus with 24 samples.

Results

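Heat shock and cytosolic chaperone genes were followed over 24 h in the ventral tegmental area (VTA), the midbrain region whose dopaminergic neurons serve reward and motivation. The list held 34 genes in 6 groups: heat-inducible chaperones with their co-chaperones, constitutive cytosolic chaperones, mitochondrial chaperones, heat shock factors, subunits of the chaperonin Cct, and subunits of prefoldin. A gene was represented by the probe set that the array annotation assigns to it alone, and by the brightest of these where there were several. This gave 31 of the 34 genes, out of 19938 genes with a probe set in all. Hspa1b shared its probe set with Hspa1a, and Hsp90ab1 and Hsf1 were not analysed here. Where the probe sets lie in the genome was not checked, so whether each lies at the gene's own locus is not known.

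The mice were male C57BL/6N wild types of 10 to 12 weeks on a cycle of 12 h light and 12 h dark, with chow and water freely available at 21 °C. Groups of 4 mice were killed every 4 h from lights on, Zeitgeber time (ZT) 0, through ZT4, ZT8, ZT12 (lights off), ZT16 and ZT20, and each mouse gave 1 array, 24 in all. Tissue came from punches of 0.5 mm diameter in slices of 0.5 mm, so that each array averaged all cells of the punch, and fewer cells of a type cannot be told apart from less RNA per cell. The purpose was to describe how VTA transcripts change over the day.

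Molecular chaperones bind proteins that have not yet folded or have lost their fold. Hsp70 proteins act in cycles of ATP hydrolysis with J proteins as partners, Hsp90 takes over later folding of kinases and steroid receptors, small heat shock proteins hold unfolded chains, and prefoldin hands new actin and tubulin chains to the ring-shaped chaperonin Cct. Cells raise the inducible members when proteins unfold, through heat shock factors that bind heat shock elements in promoters. The Cct and prefoldin subunits serve here as a comparison, and that they are never induced is not assumed.

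Values are on the log2 scale of the authors' normalization, where a difference of 1 is a doubling, and levels of different probe sets cannot be set against each other. Array medians over the 23410 transcripts, that is, probe sets with an annotated gene, lay between 6.71 and 6.79. ZT0 replicate 4 stood apart, with a median correlation of 0.970 with the other arrays, against 0.988 to 0.993 for each of the other 23 arrays. In that mouse 24 of the 31 chaperone genes were below the mean of the other 3 mice at ZT0, with a median difference of −0.24, where the median over all transcripts was 0.07. Values without it are given where a call or a count turned on it. All 9 listed markers of dopamine neurons had a probe set, which does not check where the punches lay. None of these markers had an unadjusted p under 0.05 in the 24-h fit. Among them Th had time point means of 7.66 to 7.87 and Slc6a3 of 8.30 to 8.68. Single mice ranged from 7.43 to 8.21 for Th and from 8.01 to 9.18 for Slc6a3, so that the punches were not uniform in these markers.

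The heat-inducible genes were highest around lights on. Of the 12 measured genes of this kind, 10 had their highest mean at ZT0, against 18.5% of all transcripts, the exceptions being Hspa1a (ZT16) and Hspb1 (ZT20). A highest mean at ZT0 was not particular to them. It was found in 3 of 4 constitutive cytosolic, 2 of 3 mitochondrial and 4 of 7 Cct genes, and in 0 of 4 prefoldin genes. Fitted 24-h peaks lay between ZT20 and ZT4 in 11 of the 12, against 30.9% of all transcripts. All 12 were higher on average at dawn (ZT20 and ZT0) than at dusk (ZT8 and ZT12), where 47.5% of all transcripts were, by a median of 0.10 on the log2 scale. This holds for the brightest probe set of each gene, since the other probe set of Dnaja1 differed by −0.02 and peaked at ZT4.53. As a group, the excess at dawn lay at ZT0. The median deviation of the 12 genes from their means averaged 0.094 at ZT0, against −0.050 at ZT20, −0.059 at ZT8 and −0.065 at ZT12. By mouse it was 0.27, −0.02, 0.15 and −0.03 at ZT0. Of the 12 genes, 4 had their lowest mean at ZT20, against 17.8% of all transcripts. These are descriptions of size and timing. In the limma fit over all transcripts none of the 31 genes passed an adjusted p of 0.05, neither for a 24-h rhythm (0.0299% of all transcripts passed) nor for any of 3 comparisons of times of day. The members' median fold was 1.11, and a p that misses the threshold does not show that levels were equal. At an unadjusted p under 0.05, 6 of the 31 had a 24-h rhythm, or 3 of the 12 heat-inducible genes, where 8.91% of all transcripts did. The number was 3 without ZT8 replicate 1 and 7 without ZT0 replicate 4. Shares of all transcripts are given with all mice only, here and below, so counts without a mouse have no share beside them.

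**Figure D1:**
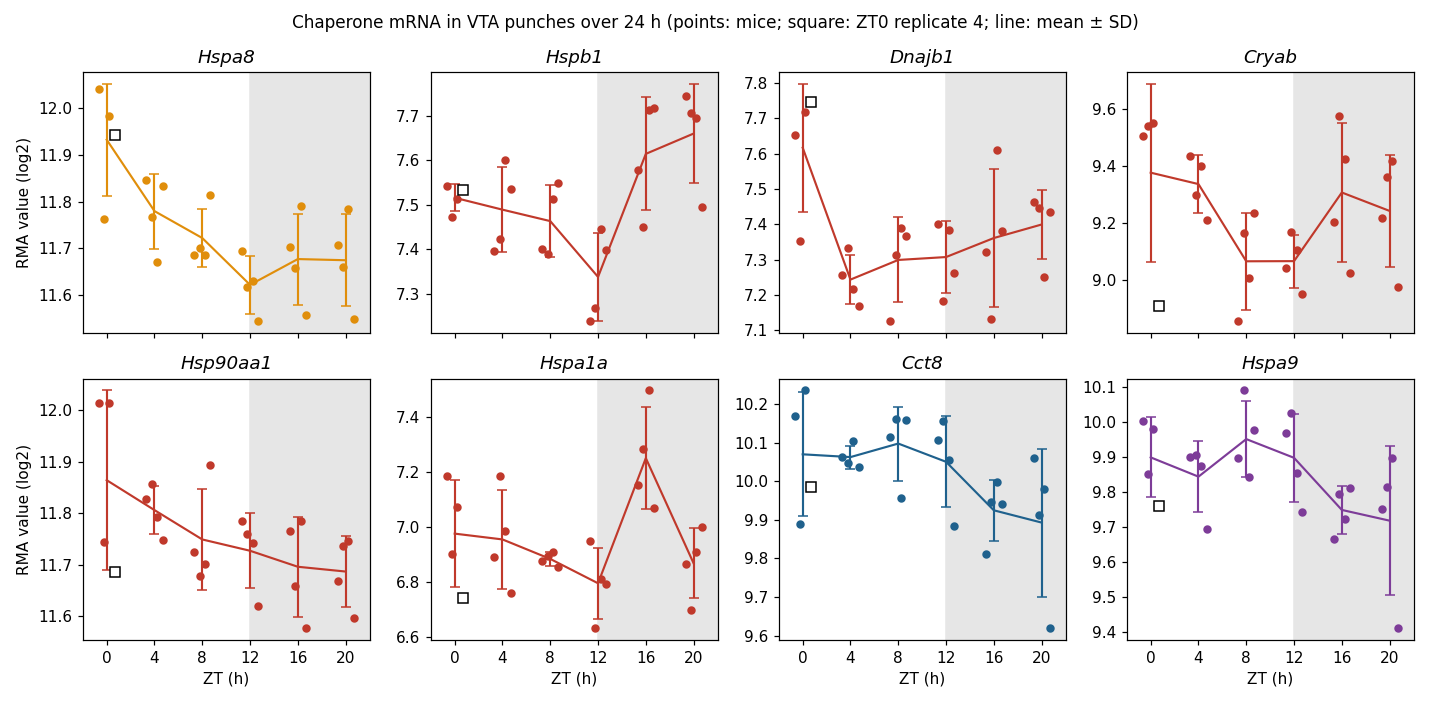
Log2 values of 8 chaperone genes against ZT (h), with points for mice, a square for ZT0 replicate 4, and lines for the mean ± SD of 4 mice (shaded: dark). Hspa8 was highest at ZT0, Hspb1 and Hspa1a in the dark, and Cct8 and Hspa9 had their lowest mean at ZT20.

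Promoter windows are shown because heat shock elements, which consist of GAA units in alternating orientation, are what defines heat-inducible genes in the textbook sense. RefSeq promoters (GRCm38.p6) were matched by symbol for 26 of the 34 genes, and the 250 bases before each start were searched for GAANNTTC and TTCNNGAA, each of which reads the same on both strands. At least 1 match was found for 6 of 11 heat-inducible genes, for both mitochondrial genes with a promoter in the table and for 2 of 9 Cct and prefoldin genes, where 14.5% of the 27025 genes in the table had one. Both motifs overlapping in a shared unit, which gives 3 alternating units in a row, occurred for 0.514% of all genes and for 2 of the 26, Hspd1 and Hspe1, which lie head to head and share the window. Windows of 5 of the heat-inducible and mitochondrial genes with a match, and of a Cct subunit for comparison, are printed below as examples of the matched letters, from 5′ to 3′ on the strand of the gene, with the matched units in capitals.
Hspe1 (chr1:55088044-55088091, plus strand): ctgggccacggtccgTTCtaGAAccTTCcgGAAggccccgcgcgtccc
Hspa1a (chr17:34972238-34972275, minus strand): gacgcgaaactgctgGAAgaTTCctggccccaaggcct
Hspb1, distal (chr5:135887787-135887824, plus strand): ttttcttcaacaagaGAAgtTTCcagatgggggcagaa
Hspb1, proximal (chr5:135887807-135887844, plus strand): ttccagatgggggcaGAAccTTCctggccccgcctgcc
Hsph1 (chr5:149636347-149636384, minus strand): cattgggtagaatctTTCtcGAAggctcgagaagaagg
Dnaja1 (chr4:40722329-40722366, plus strand): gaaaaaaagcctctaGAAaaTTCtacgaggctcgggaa
Cct5 (chr15:31601858-31601895, minus strand): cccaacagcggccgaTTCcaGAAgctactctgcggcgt
The Hspa1a window is identical to that of Hspa1b, its near-identical copy at chr17:34959320-34959357. The windows of Dnajb1, Bag3, Stip1, Chordc1 and Ahsa1, which were highest at ZT0, held no match, which says only that these letters are not in those bases. A match is a description of sequence and not of binding.

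Hspa8 encodes Hsc70, the Hsp70 protein that neurons make without stress. Its values at ZT0 were 12.04, 11.76, 11.98 and 11.94, at ZT4 11.85, 11.77, 11.67 and 11.83, and at ZT8 11.69, 11.70, 11.69 and 11.81. At ZT12 they were 11.70, 11.62, 11.63 and 11.54, at ZT16 11.70, 11.66, 11.79 and 11.56, and at ZT20 11.71, 11.66, 11.78 and 11.55. Thus 3 of the 4 mice at ZT0 were above every mouse of the other times, and ZT12 was lowest. The fitted curve peaked at ZT1.40 ± 0.998 h (SE) with a peak-to-trough fold of 1.18 (n = 24 mice, p = 0.00265, adjusted p = 0.350, limma). In the early light (ZT0 and ZT4) Hspa8 averaged 11.86 ± 0.12, against 11.65 ± 0.08 in the early dark (ZT12 and ZT16; SD, n = 8 mice each), a log2 difference of 0.21 ± 0.05 (SE, adjusted p = 0.182, limma), and 5 of the 8 early light mice lay above all early dark mice. The other 2 probe sets assigned to Hspa8 alone followed it across the 24 arrays (r = 0.924 and 0.922 with the one shown), and their early light differences were 0.17 each. A further 2, which the annotation assigns to Hspa8, Snord14c and Snord14d together, had the opposite sign. Their early light differences were −0.215 and −0.21 (unadjusted p = 0.0887 and 0.088, limma), with fitted peaks at ZT17.6.

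Hspb1, which encodes the small heat shock protein Hsp27, was highest in the dark. At ZT20 its values were 7.74, 7.71, 7.70 and 7.50, and at ZT16 they were 7.58, 7.45, 7.71 and 7.72. At ZT12 they were 7.24, 7.27, 7.44 and 7.40, and the means at the other times lay between, at 7.52 (ZT0), 7.49 (ZT4) and 7.46 (ZT8). The fitted peak was at ZT20.5 ± 1.1 h (SE) with a fold of 1.18 (n = 24 mice, p = 0.00646, adjusted p = 0.410, limma). At dawn the 8 mice averaged 7.59 ± 0.11, against 7.40 ± 0.11 at dusk (SD), a log2 difference of 0.19 ± 0.05 (SE, adjusted p = 0.746, limma). Late light values (ZT4 and ZT8) lay 0.16 ± 0.05 below late dark values (ZT16 and ZT20; adjusted p = 0.505, limma), with 4 of the 8 late light mice below all late dark mice. The second probe set of Hspb1, with r = 0.945 to the first, gave a dawn minus dusk difference of 0.20.

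Dnajb1, the J protein Hsp40 that works with inducible Hsp70, had values of 7.65, 7.35, 7.72 and 7.75 at ZT0. At ZT4 they were 7.26, 7.33, 7.22 and 7.17, the lowest mean of the day, and 3 of the 4 mice at ZT0 were above all mice of the other times. Its dawn mean was 7.51 ± 0.18, against 7.30 ± 0.10 at dusk (SD, n = 8), a difference of 0.21 ± 0.07 (SE, adjusted p = 0.98, limma), and 6 of the 8 dawn mice were above all dusk mice. The 24-h fit had p = 0.0343 (n = 24 mice, adjusted p = 0.528, limma), and p = 0.0768 without ZT0 replicate 4. Cryab, the small heat shock protein αB-crystallin, which oligodendrocytes make in quantity, had values of 9.50, 9.54, 9.55 and 8.91 at ZT0, and of 8.85, 9.17, 9.01 and 9.23 at ZT8. At dawn it averaged 9.31 ± 0.25, against 9.07 ± 0.13 at dusk (SD, n = 8), a difference of 0.24 ± 0.09 (SE, adjusted p = 0.98, limma). Of 5 oligodendrocyte markers, 2 had an unadjusted rhythm p under 0.05, Mog and Mag. The dawn minus dusk differences were −0.13 for Mog, −0.10 for Mag and −0.04 for Mbp, and 0.05 for Mobp and 0.01 for Cnp, so that 2 of the 5 had the sign of Cryab. The median deviation over the 5 markers from their means was −0.17 to 0.17 in the 8 dawn mice and −0.06 to 0.14 in the 8 dusk mice.

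Hsp90aa1, the inducible Hsp90, had values of 12.01, 11.74, 12.01 and 11.69 at ZT0, so that its mean there rested on replicates 1 and 3. In the early light it ranged from 11.69 to 12.01 with a median of 11.81, against 11.58 to 11.79 with a median of 11.75 in the early dark (n = 8 each), and the difference was 0.12 ± 0.06 (SE, adjusted p = 0.447, limma). Its other 2 probe sets gave differences of 0.18 and 0.115. Dnaja1, a J protein of the cytosol, ranged from 10.26 to 10.84 with a median of 10.53 in the early light, against 10.12 to 10.46 with a median of 10.34 in the early dark. Stip1, which bridges Hsp70 and Hsp90, ranged from 9.59 to 10.05 with a median of 9.74, against 9.40 to 9.75 with a median of 9.63 in the early dark. Bag3, which links Hsp70 to autophagy, ranged from 7.66 to 7.79 with a median of 7.75, against 7.52 to 7.76 with a median of 7.63 in the early dark. The groups overlapped for all 3, although 4 or 5 of the 8 early light mice lay above every early dark mouse. Dnaja1 differed by 0.20 ± 0.08, Stip1 by 0.14 ± 0.07 and Bag3 by 0.10 ± 0.05 (SE), with adjusted p of 0.352, 0.480 and 0.460 (limma). A further probe set of Dnaja1, which followed the first less closely (r = 0.495 over the 24 arrays), gave 0.095 (unadjusted p = 0.194, limma). Another, which the annotation assigns to both Dnaja1 and Mir207, gave 0.123 (unadjusted p = 0.188, limma). Only the brightest probe set of Dnaja1 thus had an unadjusted p under 0.05. Hsph1, the Hsp110 that recharges Hsp70, had values of 9.24, 8.92, 9.03 and 9.16 at ZT0 and between 8.84 and 9.10 at all other times, with an early light difference of 0.09 ± 0.05 (SE, adjusted p = 0.576, limma). Together with Hspa8 this made 5 of the 31 genes higher in the early light at an unadjusted p, against 4.67% of all transcripts, and none lower. None passed the adjusted threshold, as 0.0342% of all transcripts did. The mean was higher in the early light for 25 of the 31 genes and for 11 of the 12 heat-inducible genes, against 47.5% of all transcripts, with a median of 0.10 in the heat-inducible group and −0.01 over all transcripts.

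The count of 5 depended on single mice. Shares of all transcripts without these mice are not given, so a shift common to all transcripts cannot be told apart. It was 10 without ZT0 replicate 4, where Chordc1, Cryab, Hspe1, Hspa4 and Hspd1 came in with differences of 0.32, 0.25, 0.27, 0.16 and 0.17. Leaving out replicate 3 of ZT0 gave 2, as did leaving out replicate 1 of ZT4 or replicate 4 of ZT12. Leaving out replicate 1 of ZT0 gave 2 higher genes and 1 lower, Hsf2. Leaving out replicate 2 of ZT4, replicate 3 of ZT12 or replicate 4 of ZT16 gave 3. Without ZT0 replicate 2 Hspa8 had a difference of 0.23, the smallest p of the 31 genes, and 1 of the 31 passed the adjusted threshold in that setting. Chordc1, a co-chaperone of Hsp90, had values of 8.46, 7.99, 8.57 and 7.40 at ZT0, so that ZT0 replicate 4 held its lowest value of the day and replicates 1 and 3 its highest.

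Hspa1a, the stress-inducible Hsp70, differed from the group in its highest time on the probe set of its own. That probe set was highest at ZT16, at 7.15, 7.28, 7.50 and 7.07, and lowest at ZT12, at 6.95, 6.63, 6.81 and 6.79. No mouse at ZT16 overlapped with a mouse at ZT12, but these times were picked as those with the highest and lowest mean. The 24-h fit gave p = 0.32 (n = 24 mice, adjusted p = 0.787, limma), and a fit of the 6 time points as separate groups gave p = 0.00319 (n = 24 mice, unadjusted). The probe set shared by Hspa1a and Hspa1b had means from 7.845 at ZT12 to 7.997 at ZT20, with 7.961 at ZT16. Its fitted peak was at ZT21.9 (unadjusted p = 0.316, limma), within the range of the group, and its dawn minus dusk difference was 0.099. Its r with the Hspa1a probe set was −0.192 over the 24 arrays. The near-identical copies cannot be separated in the shared probe set. Hsf2, the only heat shock factor measured, was 6.77 on average, with 5.99 in ZT0 replicate 4, and had an adjusted p of 0.797 for a rhythm.

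Hspa9, the mitochondrial Hsp70 mortalin, had values of 9.90, 10.09, 9.84 and 9.97 at ZT8 and of 9.75, 9.81, 9.90 and 9.41 at ZT20, with a fitted peak at ZT6.89 ± 1.47 h (SE, n = 24 mice, p = 0.0483, adjusted p = 0.555, limma), and p = 0.0508 without ZT0 replicate 4. Late light mice averaged 9.90 ± 0.11, against 9.73 ± 0.15 in late dark mice (SD, n = 8), a difference of 0.16 ± 0.06 (SE, adjusted p = 0.560, limma). Hspd1 and Hspe1, the mitochondrial chaperonin Hsp60 and its lid Hsp10, varied together from mouse to mouse, and both held their highest and lowest value at ZT0. Hspd1 had 10.43, 10.13, 10.47 and 9.79 there, and Hspe1 had 11.51, 11.16, 11.39 and 10.64. Their early light differences were 0.10 ± 0.09 and 0.18 ± 0.10 (SE), with adjusted p of 0.716 and 0.537 (limma). For Hspe1, 6 of the 8 early light mice lay above all early dark mice and 1, ZT0 replicate 4, below all of them, and for Hspd1 these numbers were 3 and 1. The other probe set of Hspe1 gave 0.14 (r = 0.981), and that of Hspd1 gave −0.04 with a fitted peak at ZT10.1 (r = 0.734), the opposite sign to the one shown. All 3 mitochondrial genes had their lowest mean at ZT20, as did 14 of the 31 genes and 17.8% of all transcripts.

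**Figure D2:**
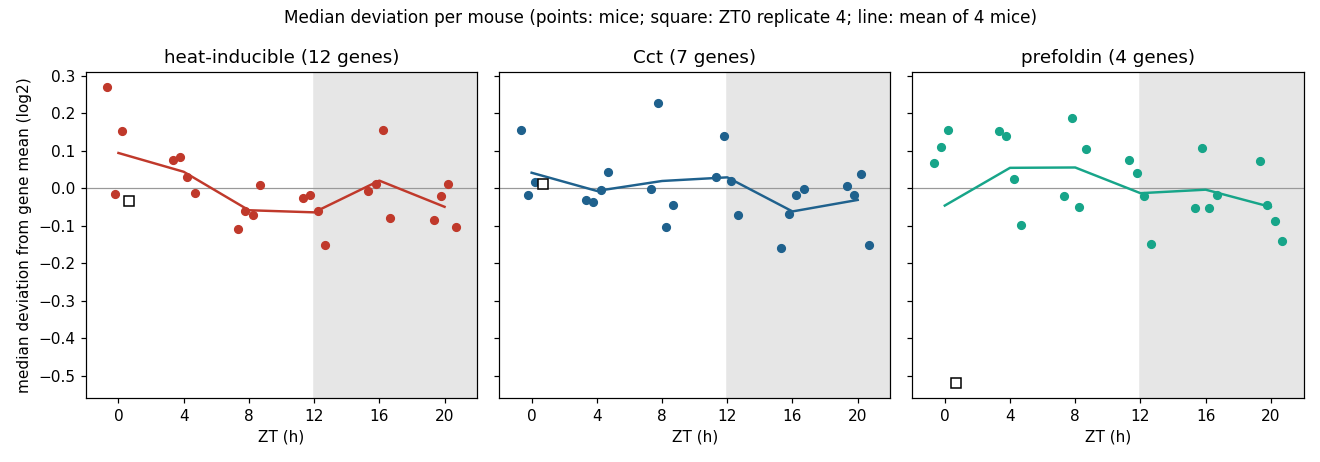
Median deviation from the gene's mean (log2) over the heat-inducible, Cct and prefoldin genes in each mouse against ZT (h), with lines for the mean of 4 mice and a square for ZT0 replicate 4. ZT0 replicates 1 and 3 were at 0.27 and 0.15 in the heat-inducible group, and ZT0 replicate 4 was at −0.52 in prefoldin.

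The Cct and prefoldin subunits had no common direction from dusk to dawn. Of their 11 genes, 5 were higher at dawn than at dusk, with a median of −0.02, and 4 had a fitted peak between ZT20 and ZT4, while 5 had one between ZT4 and ZT12, as did 31.7% of all transcripts and none of the 12 heat-inducible genes. The median dawn minus dusk difference of the heat-inducible genes was 0.12 above that of the Cct and prefoldin genes, where the gap between the groups' medians had an SD of 0.09 between mice. In the late light comparison the medians were 0.01 in the heat-inducible group and 0.08 in the Cct and prefoldin genes, a difference of −0.08 between the groups, and in the early light comparison the groups lay 0.04 apart. The SD of 0.09 is that of single mice, whereas each gap compares 8 mice with 8 others. It therefore does not measure the precision of a gap, and the gaps were not tested. Leaving out any mouse kept the dawn minus dusk gap between 0.09 and 0.16.

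Within the Cct ring, Cct8 alone had an unadjusted rhythm p under 0.05. Its values were 10.11, 10.16, 9.96 and 10.16 at ZT8 and 10.06, 9.91, 9.98 and 9.62 at ZT20, and its curve peaked at ZT6.18 ± 1.37 h (SE) with a fold of 1.15 (n = 24 mice, p = 0.0319, adjusted p = 0.523, limma). Late light mice averaged 10.08 ± 0.07, against 9.91 ± 0.14 in late dark mice (SD, n = 8), a difference of 0.17 ± 0.06 (SE, adjusted p = 0.529, limma), and 5 of the 8 late light mice lay above all late dark mice. Tcp1, another subunit of the ring, ranged from 8.86 to 9.17 with a median of 8.997 in the late light, against 8.73 to 8.97 with a median of 8.91 in the late dark, and differed by 0.13 (adjusted p = 0.641, limma). The other 5 Cct genes had rhythm folds of 1.01 to 1.09 and unadjusted p from 0.214 to 0.968.

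With Hspa9, Cct8 and Tcp1, 3 of the 31 genes were higher in the late light at an unadjusted p, against 3.66% of all transcripts, and Hspb1 alone was lower, against 4.03%. The mean was higher in the late light for 21 of the 31 genes, against 49.8% of all transcripts, and 0% of all transcripts passed the adjusted threshold. Without ZT0 replicate 4 there were 5 higher and 2 lower genes, and without ZT20 replicate 4 there was 1 of each. In the dawn comparison Cryab, Dnajb1, Hspb1 and Hspa8 (0.13 ± 0.05, SE) were higher at an unadjusted p, 4 of the 31 genes against 2.03% of all transcripts, none was lower, and 0.00854% of all transcripts passed the adjusted threshold. Without ZT0 replicate 2 there were 7 higher genes and 1 lower, Pfdn2, and without ZT0 replicate 4 there were 7 higher and none lower.

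**Figure D3:**
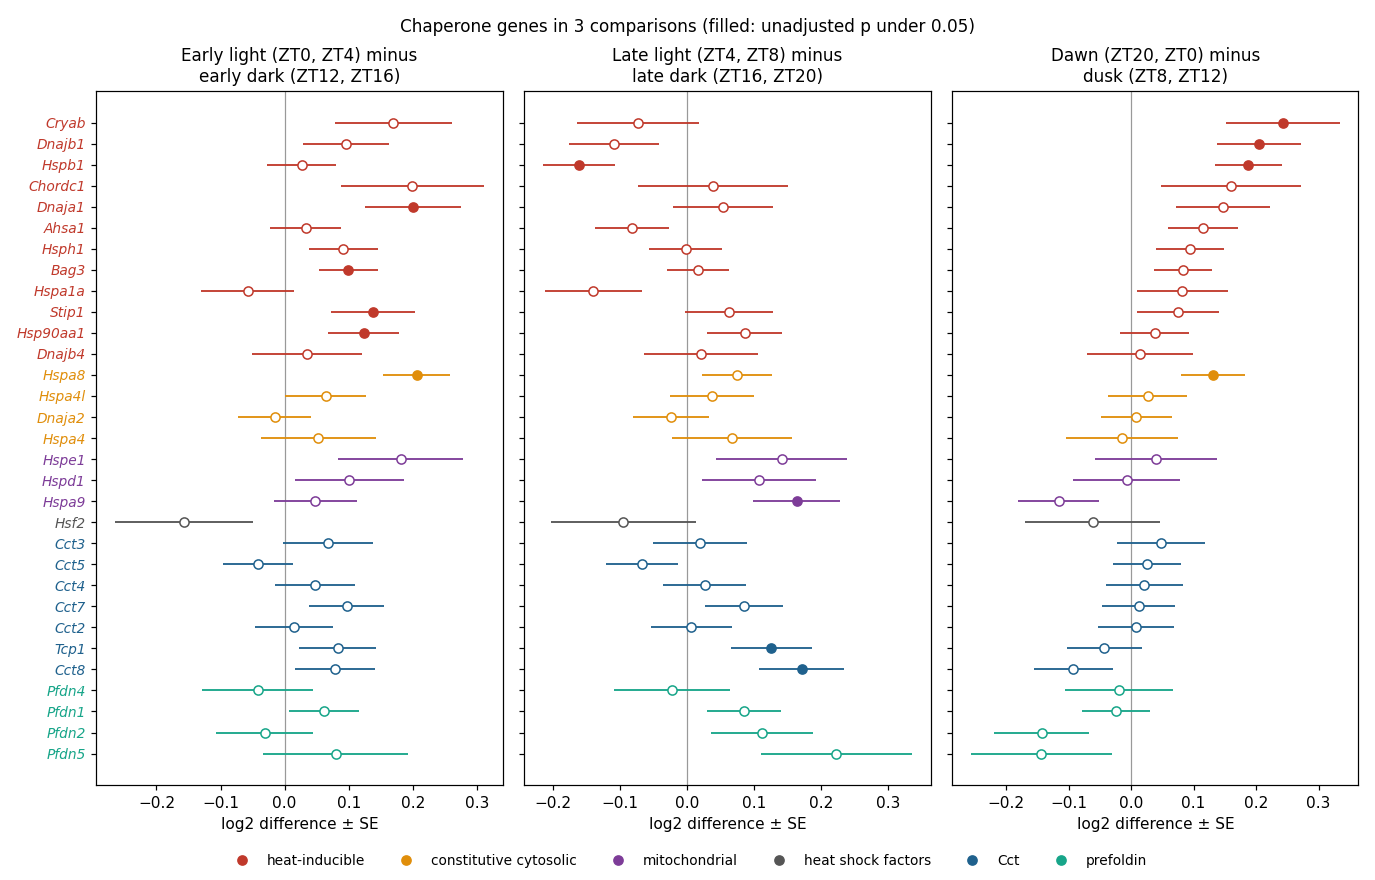
Log2 difference ± SE of the 31 genes in the early light, late light and dawn comparisons, coloured by group, with filled points at an unadjusted p under 0.05. All 12 heat-inducible genes lie right of 0 in the dawn comparison and all 4 prefoldin genes left of it.

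The prefoldin result turned on 1 mouse. With all mice, 3 of the 4 subunits were highest at ZT8, against 13.7% of all transcripts, and none was higher at dawn, against 47.5%. Pfdn2 had 9.82, 9.89, 9.88 and 9.20 at ZT0. Without ZT0 replicate 4, 2 of the 4 were highest at ZT0 and 2 were higher at dawn. The Cct and prefoldin genes with their highest mean at ZT0 numbered 8 of 11 without that mouse, against 4 with it. With all mice 18.5% of all transcripts were highest at ZT0, and the share without that mouse is not given here. Without that mouse a peak mean at ZT0 thus did not separate the Cct and prefoldin genes from the heat-inducible genes. The heat-inducible counts were the same without it, with 10 highest at ZT0 and 12 higher at dawn, and the Cct and prefoldin count at dawn was 5 of 11 in both cases. Without ZT0 replicate 1 the heat-inducible genes highest at ZT0 numbered 6, and after a further quantile normalization 7. Without ZT8 replicate 3, 2 of the 11 Cct and prefoldin genes were highest at ZT0 and 2 had a fitted peak between ZT20 and ZT4. Leaving out replicate 3 or 4 of ZT8, replicate 4 of ZT12 or replicate 3 of ZT20, the Cct and prefoldin count at dawn was 3.

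**Figure D4:**
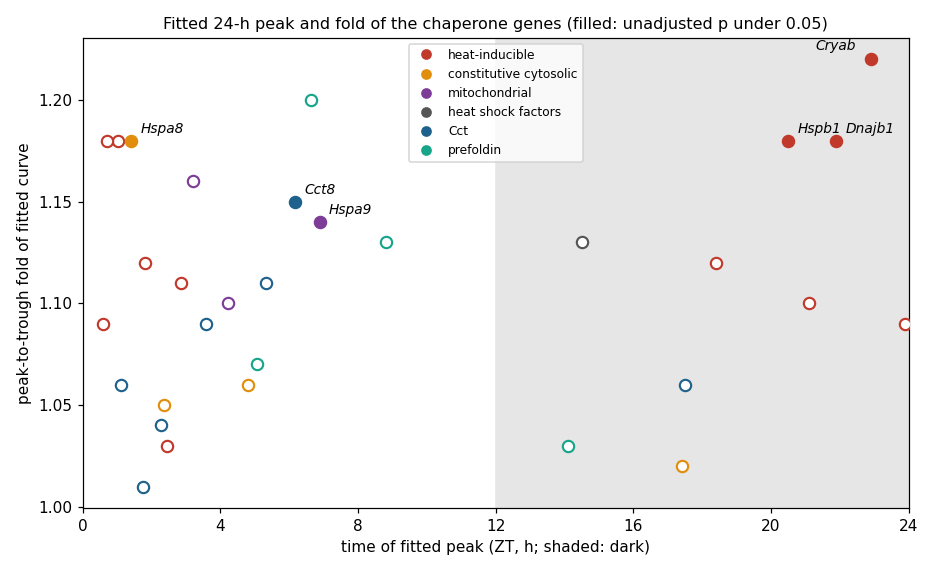
Time of the fitted 24-h peak (ZT, h) against the peak-to-trough fold of the fitted curve for the 31 genes, coloured by group, with filled points at an unadjusted p under 0.05. With the probe sets shown, no heat-inducible gene peaks between ZT4 and ZT12, and all folds are between 1.01 and 1.22.

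A family of 8 pairs of genes was set against each other over the 24 arrays, by permutation with 100000 resamples and p adjusted over the 8 pairs. Hspa1a and Hspa1b were a further planned pair that could not be compared, since Hspa1b had no probe set of its own. Hspd1 and Hspe1 had r = 0.896 (p = 1e-05, the smallest these permutations can give, adjusted p = 8e-05) and Spearman's rho = 0.885 (p = 1e-05, adjusted p = 8e-05), with r = 0.860 without ZT0 replicates 3 and 4 and r = 0.890 after the time point means were subtracted. Hspa8 and Hsp90aa1 had r = 0.772 (p = 5e-05, adjusted p = 0.0002) and rho = 0.653 (p = 0.00075, adjusted p = 0.003), with r = 0.571 without ZT0 replicates 1 and 3 and 0.709 after the time point means were subtracted. Hsp90aa1 and Hsph1 had r = 0.452 (p = 0.0271, adjusted p = 0.0723) and rho = 0.410 (p = 0.0481, adjusted p = 0.128), which was r = 0.181 without ZT0 replicates 1 and 3, so that it rested on those mice. The other 5 pairs, with r from −0.335 to 0.247, did not pass. Within time points, the median r over the 66 pairs of heat-inducible genes was 0.272, over the 21 pairs of Cct genes 0.550 and over the 6 prefoldin pairs 0.697, and without ZT0 replicate 4 these were 0.365, 0.549 and 0.550, as a description over mice of shared arrays.

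Other genes of the pathway, 58 of which were measured, had no common dawn direction. Of these, 4 had an unadjusted rhythm p under 0.05, against 8.91% of all transcripts. They were Fkbp4 and St13, which are co-chaperones of Hsp90 and Hsp70, and Pfdn6 and Pdrg1, which belong to prefoldin and its relatives. Fkbp4 peaked at ZT0.0285 with a fold of 1.15 and Pfdn6 at ZT3.76 with a fold of 1.13, with adjusted p of 0.545 and 0.519 (limma). The median dawn minus dusk difference over the 58 genes was −0.02, with 21 above 0, against 47.5% of all transcripts. Both cold-inducible RNA-binding proteins had the opposite sign at dawn to the heat-inducible genes. Cirbp was 6.97 ± 0.07 at dawn, against 7.33 ± 0.10 at dusk (SD, n = 8), with all 8 dawn mice below all dusk mice, and fell by 0.35 ± 0.05 on the log2 scale (SE, adjusted p = 0.00252, limma). Rbm3 peaked at ZT11.6, and its difference was −0.34 ± 0.08 (SE, adjusted p = 0.334, limma). Hspa8 and Cirbp had r = −0.335 from mouse to mouse (p = 0.109, adjusted p = 0.218, permutation test over 24 mice) and rho = −0.332 (p = 0.114, adjusted p = 0.228), with r = −0.237 without ZT0 replicates 1 and 3. Of 5 endothelial markers, 2 were above 0 at dawn and 1, the tight junction gene Cldn5, had an unadjusted rhythm p under 0.05. Of 5 immediate early genes, 3 were above 0 at dawn and 3 had such a p, with peaks at ZT21.4 for Fos, ZT17.1 for Npas4 and ZT14.2 for Egr1. The median deviation over 5 endothelial markers was −0.05 to 0.12 in dawn mice and −0.06 to 0.12 in dusk mice. That over 5 immediate early genes was −0.07 to 0.06 in dawn mice and −0.17 to 0.08 in dusk mice. Above 0 at dawn were 4 of 5 microglia markers, 5 of 9 dopamine neuron markers, 2 of 5 astrocyte markers and 0 of 5 neuron markers. The microglia median deviation was 0.03 to 0.18 in the ZT0 mice, and 3 of the 5 were highest at ZT0, against 18.5% of all transcripts. The part of these cell types and genes in the dawn values was not tested.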

How the data were processed

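Each of 24 VTA punches was hybridized to 1 array. The authors deposited log2 values per probe set, made with RMA in R 2.13.1 per the labels, and no further normalization was applied. Sampling times follow the labels, which give 4-h intervals, where the methods state another interval. The members and gene lists were chosen with earlier results of these data known. CircWave, used in the study, was replaced by limma 3.58.1 in R 4.3.3: a 24-h cosine and sine with a moderated F-test, and contrasts of 6 time points, with Benjamini-Hochberg adjustment over 23410 transcripts. Named genes were 12 fixed chaperones, members with an unadjusted p under 0.05, and the smallest p of the pathway lists. The fits were tested on simulated data. Alternatives were the replicate block, 2 scalings, probe set choices, array weights, variance settings, and leaving out arrays or time points. Pair correlations and motif searches used Python 3.11.15 and matplotlib 3.10.9 drew the plots. No mouse was dropped, and the labels do not say whether litters were shared.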

Additional observations from a re-analysis of the deposited data

Results flagged for a closer look

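In 11 of 186 groups of 4 mice, 1 mouse stood far from the other 3, where chance gives about 1 in 20, or 9.3. Cryab (8.91, others 9.50 to 9.55) and Pfdn2 (9.20, others 9.82 to 9.89) were low in ZT0 replicate 4. Other low values were Dnaja1 10.18 in ZT16 replicate 4, Dnajb1 7.25 in ZT20 replicate 3, Dnajb4 8.25 and Hspa9 9.69 in ZT4 replicate 4, and Ahsa1 8.44 in ZT12 replicate 4. High values were Hspa8 11.81 and Hspa4 9.38 in ZT8 replicate 4, and Cct3 8.45 and Pfdn4 7.09 in ZT8 replicate 2.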

How the results depend on the processing

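No gene with an unadjusted p under 0.05 in a comparison changed sign in any setting run, but of the 31 genes 9 changed sign in at least 1 setting in the early light, 11 in the late light and 12 at dawn. Without ZT0 replicate 4, Hspd1, Hspa4 and Hsf2 differed at dawn by 0.06, 0.09 and 0.06, against −0.01, −0.01 and −0.06 with it. The heat-inducible late light median, 0.01, was −0.06 after a further quantile normalization, and the Cct and prefoldin dawn median, −0.02, was 0.02 without ZT8 replicate 2. At an unadjusted p under 0.05 the number of rhythmic genes, 6, became 11 with array weights, 3 without the mice of ZT0, 2 without those of ZT8 and 3 without those of ZT12. The early light count, 5, became 2 after a further quantile normalization and 11 with array weights. The late light count, 4 (3 higher, 1 lower), became 2 (both lower, Hspb1 and Ahsa1) and 8 (4 higher, 4 lower) under the same settings, and the dawn count, 4, became 9 (8 higher, and Hspa9 lower) and 9 (all higher). The cause was not tested, and no shares of all transcripts under these settings are given to set these counts against. Leaving out each mouse gave 3 to 7 rhythmic genes, 2 to 10 in the early light, 2 to 7 in the late light and 4 to 8 at dawn. The gap between heat-inducible and Cct and prefoldin genes ranged from 0.03 to 0.07 in the early light, from −0.10 to −0.06 in the late light and from 0.09 to 0.16 at dawn. Heat-inducible genes higher at dawn ranged from 11 to 12, highest at ZT0 from 6 to 10, with a peak from ZT20 to ZT4 from 10 to 12 and higher in the early light from 10 to 11, and Cct and prefoldin genes higher at dawn from 3 to 6 and with that peak from 2 to 4. The last 6 counts were chosen after seeing the data. Over all transcripts, same-numbered mice of different times had a median r of 0.026 (−0.302 to 0.582). This does not show whether they shared an effect in the chaperone genes. Replicate 4 had the lowest median deviation over the 31 genes at ZT0, ZT4, ZT12, ZT16 and ZT20 (−0.08, −0.05, −0.13, −0.07 and −0.16), but not at ZT8. Whether the numbers pair the mice cannot be told, and with a replicate block the counts were 7, 6, 5 and 6. The number of mice limits the precision.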
